A study of Mus musculus with 7 samples.

Results

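Markers of kidney tubule injury were compared between whole kidneys of mice that lack a pair of heparan sulfate enzymes and kidneys of wild-type mice. The markers are the 10 genes Havcr1, Lcn2, Krt20, Clu, Spp1, Vcam1, Sox9, Cdkn1a, Timp1 and Gdf15, taken by gene symbol from the deposited expression table, out of 48709 Ensembl genes counted. The DKO group holds 4 male kidneys with a double knockout of Hs3st3a1 and Hs3st3b1 (replicates 1 to 4), and the WT group holds 3 male wild-type kidneys (replicates 1, 2 and 4). Each library's title carries a different number, and each library was treated as 1 animal. The labels give neither strain nor age nor the deleted stretch of either gene, and genotype is the only factor they name. Both enzymes add a 3-O-sulfate to heparan sulfate chains, and the series is about the size and the glomeruli of kidneys without them. The injury markers ask whether the tubules of DKO kidneys differed as well.

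A healthy tubule cell keeps most of these genes low or silent, and damage by ischemia, toxins, obstruction or protein overload switches them on, above all in the proximal tubule. Some of the products reach the urine and are used as clinical readouts of acute kidney injury. Others mark cells that spread over the denuded basement membrane, divide, and then either redifferentiate or stay in a failed-repair state that keeps secreting inflammatory and matrix-active proteins. Several have a second source in a healthy kidney: Spp1 in the loop of Henle and distal nephron, Vcam1 in vessels and parietal epithelium, Krt20 in the urothelium and Lcn2 in neutrophils.

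Libraries held 18330929 to 24259400 counts. Hs3st3a1, a targeted gene, had 1, 0, 0 and 3 reads in DKO replicates 1 to 4, against 29, 13 and 12 reads in WT replicates 1, 2 and 4. Hs3st3b1 had 33, 106, 65 and 108 reads in DKO replicates 1 to 4, against 56, 90 and 112 reads in WT, and since the deleted part is unknown its count does not check the label. The table also counts a neomycin resistance cassette, a common part of targeting vectors, which had 73, 75, 81 and 125 reads in DKO replicates 1 to 4, against 0, 0 and 0 reads in WT. The tubule markers Umod, the most abundant protein of normal urine, and Slc34a1, the proximal phosphate transporter, stood at 3996 ± 995 and 4555 ± 362 counts scaled to library size (CPM, with TMM normalisation) in DKO against 6419 ± 1649 and 3201 ± 191 CPM in WT (here and below ± is the SD, n = 4 for DKO and n = 3 for WT). Levels below are on this CPM scale, and differences are log2 fold changes of DKO over WT from edgeR's quasi-likelihood test with Benjamini-Hochberg adjustment over all 15394 genes tested. Called means an adjusted p below 0.05. Nothing in the labels tells litters or cages apart, so the p-values measure the spread between these 7 animals.

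None of the 10 injury markers was called in DKO kidneys. By edgeR 0 of 10 passed an adjusted p of 0.05, where 0% of all genes tested did, and 0 of 10 had even an unadjusted p under 0.05, where 21.1% of all genes did. DESeq2 gave an adjusted p to 4 of the markers (Clu, Spp1, Vcam1 and Cdkn1a) and called 0 of them, against 7.36% of the 9125 genes with one. Limma-voom called 0 of 10, and the count of markers at an unadjusted p under 0.05 was 0 with both tools. All 10 genes passed the filter on low counts. DKO and WT libraries overlapped for every one of the 10, while they did not overlap for 17.4% of all genes tested (8.34% higher and 9.04% lower in DKO). The fitted fold change was above 1 for 7 of 10 markers, where 53.2% of all genes were above, and the median log2 fold change was 0.19 over the markers and 0.036 over all genes. These shares describe a list of 10 and carry no test of their own.

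Per length, the markers comprised an abundant gene, a pair of moderate ones and a group with low levels per kilobase of exon. Spp1 led at a median of 1458 CPM per kilobase of exon over the 7 libraries (1390 to 1871). Clu followed at 22.6 (14.5 to 32.2) and Cdkn1a at 5.27 CPM per kilobase (3.39 to 10.1). The ranges of these genes did not overlap with each other or with the next gene down. Gdf15 (1.45), Vcam1 (0.983), Havcr1 (0.687), Sox9 (0.678), Lcn2 (0.576), Timp1 (0.536) and Krt20 (0.368 CPM per kilobase) overlapped with their neighbours in this order. The ranges of these neighbours do not settle which is higher, and the gene placed higher led in 2 to 6 of the 7 libraries. Gdf15 lay clear of Sox9 and Lcn2, with a lowest value of 1.1753 CPM per kilobase against highest values of 1.165 and 1.1745. Among all genes tested, 99.8% had a lower mean CPM than Spp1, whereas 18.8% lay below Havcr1, 12.6% below Krt20 and 5.76% below Timp1.

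The promoters of the 3 markers that reached an unadjusted p under 0.05 in at least 1 alternative analysis, Cdkn1a, Krt20 and Spp1, are shown as the 100 bases before a transcription start, from RefSeq on GRCm38.p6, 5′ to 3′ along the gene. Capitals mark letters found by a search on both strands.
Cdkn1a, upstream start, chr17:29090879-29090978, plus strand: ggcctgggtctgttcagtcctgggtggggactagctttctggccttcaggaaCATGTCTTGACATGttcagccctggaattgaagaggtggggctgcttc
Cdkn1a, downstream start, chr17:29093669-29093768, plus strand: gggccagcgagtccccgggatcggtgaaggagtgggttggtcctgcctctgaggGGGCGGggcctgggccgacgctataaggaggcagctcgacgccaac
Krt20, chr11:99438154-99438253, minus strand: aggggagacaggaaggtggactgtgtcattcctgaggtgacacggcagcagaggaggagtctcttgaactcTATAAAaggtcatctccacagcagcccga
Spp1, chr5:104435011-104435110, plus strand: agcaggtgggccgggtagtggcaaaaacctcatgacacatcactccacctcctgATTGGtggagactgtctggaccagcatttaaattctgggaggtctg
The capitals before the upstream Cdkn1a start match a pair of CATG cores with any 6 bases between them, as in a p53 response element, and 0.49% of the 32851 mouse promoter windows held such a pair within 250 bases before the start. The capitals before the downstream start match the GC box GGGCGG (32.7% of windows), those of Krt20 the TATA box TATAAA (12.4%) and those of Spp1 the CCAAT box on the minus strand (33.8%). Letters for NF-kB (GGG, any 2 bases, TT, any base, CC; 4.11% of windows), AP-1 (TGANTCA, 6.75%) and STAT (TTCNNNGAA, 7.02%) were found in 0 of the 7 markers that had a window in the table. These motifs do not contain one another, and matches are letters only, not shown binding sites.

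**Figure D1:**
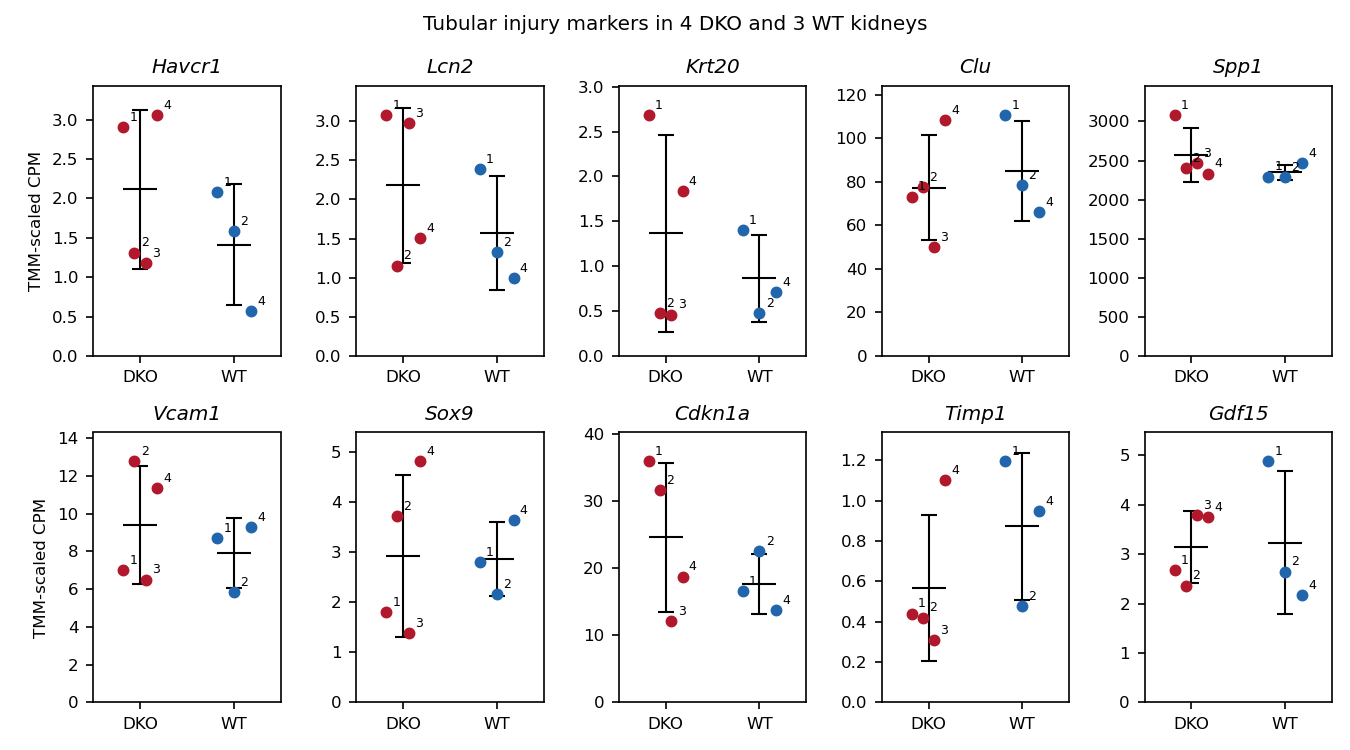
TMM-scaled CPM of each injury marker on its own axis from 0, with 4 DKO kidneys at the left of each panel and 3 WT kidneys at the right. Points are animals with their replicate number, and bars are the mean and SD. DKO and WT points overlap in all 10 panels, and the DKO points of Krt20 split between 0.461 and 2.68 CPM.

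Havcr1 (ENSMUSG00000040405, chr11:46735080-46779578, plus strand, GRCm38 as in GENCODE M21, the build of all gene positions here) encodes KIM-1, a membrane receptor for phosphatidylserine that injured proximal tubule cells use to engulf dead neighbours and whose shed ectodomain is a urinary injury marker. It had 2.90, 1.31, 1.18 and 3.06 CPM in DKO replicates 1 to 4, against 2.08, 1.59 and 0.568 CPM in WT replicates 1, 2 and 4. DKO replicates 1 and 4 lay above every WT kidney and the other DKO kidneys lay inside the WT range. The mean was 2.11 ± 1.01 CPM in DKO (SD, n = 4) and 1.41 ± 0.770 CPM in WT (SD, n = 3), with a log2 fold change of 0.60 (SE 0.49, edgeR adjusted p 0.492). The 95% interval of the fold was 0.717 to 3.20. The log2 value was 0.36 without DKO replicate 4, 0.21 without WT replicate 4 and 0.97 without WT replicate 1. These values rest on 12 to 75 reads per library. The counting intervals of DKO replicate 4 (2.41 to 3.84 CPM) and DKO replicate 3 (0.747 to 1.77 CPM) did not meet. These are the highest and lowest DKO kidneys, picked with their values in view.

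Lcn2 (ENSMUSG00000026822, chr2:32384633-32388252, minus strand) encodes NGAL, an iron-siderophore binding protein released by stressed distal nephron cells and by neutrophils. It had 3.08, 1.16, 2.97 and 1.51 CPM in DKO replicates 1 to 4, against 2.39, 1.32 and 0.994 CPM in WT. DKO replicates 1 and 3 were above the WT range and replicates 2 and 4 within it. The difference was 0.48 on the log2 scale (SE 0.44, edgeR adjusted p 0.539), with a fold interval of 0.717 to 2.70. It was 0.26 without DKO replicate 1, 0.30 without DKO replicate 3, 0.23 without WT replicate 4 and 0.90 without WT replicate 1, and 0.065 in limma-voom with quality weights. Of 10 neutrophil markers only S100a9 and Ltf were abundant enough to be tested, and Ly6g, a surface marker of mouse neutrophils, had at most 1 read in any library. The summed neutrophil markers were 6.69, 0.840, 2.92 and 1.63 CPM in DKO replicates 1 to 4, against 2.23, 1.11 and 4.21 CPM in WT. The 4 DKO kidneys took the same order in this sum as in Lcn2, while WT replicate 4 had the highest WT sum and the lowest Lcn2. The part of neutrophils in the Lcn2 values was not tested. In whole-kidney RNA, fewer cells of a type and less RNA per cell cannot be told apart.

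Krt20 (ENSMUSG00000035775, chr11:99428403-99438150, minus strand), an intermediate filament keratin that is absent from normal tubules and appears in injured ones, varied most between animals. It had 61, 9, 9 and 45 reads in DKO replicates 1 to 4, against 27, 9 and 15 reads in WT, that is 2.68, 0.473, 0.461 and 1.84 CPM in DKO and 1.40, 0.476 and 0.710 CPM in WT. The same DKO replicates that were high for Havcr1, 1 and 4, were above every WT kidney, and the other DKO kidneys were level with WT replicate 2, all 3 on 9 reads. The highest DKO kidney had 5.82 times the level of the lowest. The log2 fold change was 0.68 (SE 0.65, edgeR adjusted p 0.563) and the fold interval ran from 0.586 to 4.36, the widest among the markers. Without DKO replicate 1 the log2 fold change was 0.13, without WT replicate 2 it was 0.38, and without WT replicate 1 it was 1.19. Summed markers of the urothelium, the lining of the renal pelvis that also makes Krt20, were 125, 125, 132 and 113 CPM in DKO replicates 1 to 4, against 152, 112 and 129 CPM in WT. DKO replicate 4, which was high for Krt20, had the lowest urothelial sum of its group, while the WT kidneys took the same order in both values. The part of the urothelium in the Krt20 values was not tested.

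Clu (ENSMUSG00000022037, chr14:65968483-65981547, plus strand) encodes clusterin, a secreted chaperone that binds misfolded protein and cell debris. It had 73.2, 77.6, 49.9 and 108.5 CPM in DKO replicates 1 to 4, against 110.8, 78.5 and 66.1 CPM in WT. Only DKO replicate 3 lay outside the WT range, below it. The mean was 77.3 ± 24.1 CPM in DKO (SD, n = 4) and 85.1 ± 23.0 CPM in WT (SD, n = 3), a log2 fold change of -0.14 (SE 0.26, edgeR adjusted p 0.778) with a fold interval of 0.614 to 1.34. These values rest on 974 to 2659 reads per library.

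Spp1 (ENSMUSG00000029304, chr5:104435118-104441050, plus strand) encodes osteopontin, a phosphorylated secreted protein that limits crystal growth in urine and recruits macrophages after injury. It had 3084, 2402, 2463 and 2334 CPM in DKO replicates 1 to 4, against 2295, 2290.2 and 2464 CPM in WT. DKO replicate 1 alone was above the WT range, and the other DKO kidneys lay within it. The mean was 2571 ± 346 CPM in DKO (SD, n = 4) and 2350.0 ± 99.1 CPM in WT (SD, n = 3). The log2 fold change was 0.13 (SE 0.18, edgeR adjusted p 0.692) and the fold interval of 0.835 to 1.43 was the narrowest of the 10. With a trend over exon length and GC content removed it was 0.41 (SE 0.16, unadjusted p 0.0252, edgeR adjusted p 0.273). Spp1 has 1648 nt of exon and 43.3% GC in its longest transcript, and on that scale its fold interval lay above 1 without passing adjustment. Without DKO replicate 1 the log2 fold change was 0.030, and without WT replicate 4 every DKO kidney was above every WT kidney.

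Markers of the thick ascending limb, a segment of the loop of Henle that also holds Spp1 in a healthy kidney, had a median log2 fold change of -0.31 over 9 tested of 10 listed genes, with 4 lower and 0 higher at an unadjusted p under 0.05, where 11.3% and 9.86% of all genes were. Their sum was 5483, 6006, 4784 and 7294 CPM in DKO replicates 1 to 4, against 10396, 6571 and 8915 CPM in WT, with only DKO replicate 4 inside the WT range. Umod was the largest part of this sum in every library (3770, 4135, 2835 and 5242 CPM in DKO, 7937, 4666 and 6655 CPM in WT). The sum is therefore not a measure separate from Umod. Umod was at 3996 ± 995 CPM in DKO and 6419 ± 1649 CPM in WT (log2 fold change -0.68, edgeR adjusted p 0.179), and Kcnj1, which returns potassium to the tubule fluid, at 600.1 ± 93.6 CPM in DKO and 872 ± 212 CPM in WT (-0.54, edgeR adjusted p 0.195). The growth factor Egf was at 511 ± 98.8 CPM in DKO and 512 ± 109 CPM in WT (-0.00091, edgeR adjusted p 0.998). The claudins Cldn16 (-0.89) and Cldn10 (-0.38), named after their values were seen, were the others at an unadjusted p under 0.05. The fitted fold change was above 1 for 3 of the 9, also named with values in view: the sodium-potassium-chloride cotransporter Slc12a1 (0.31), Ptger3 (0.30) and Ppp1r1b (0.19). For Slc12a1, 3 of 4 DKO kidneys lay above every WT kidney. The segment's part in the Spp1 values was not tested.

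Vcam1 (ENSMUSG00000027962, chr3:116109949-116129688, minus strand), an integrin ligand that is induced on endothelium by cytokines and marks failed-repair proximal tubule, had 6.998, 12.8, 6.51 and 11.3 CPM in DKO replicates 1 to 4, against 8.72, 5.82 and 9.27 CPM in WT. DKO replicates 2 and 4 were above the WT range and the rest inside it. The log2 fold change was 0.24 (SE 0.27, edgeR adjusted p 0.625), with a fold interval of 0.779 to 1.80. It was 0.068 without DKO replicate 2, 0.14 without DKO replicate 4 and 0.053 without WT replicate 2, against 0.40 without DKO replicate 3 and 0.37 without WT replicate 4. The summed endothelial markers overlapped between groups, at 421 to 505 CPM in DKO and 377 to 530 CPM in WT. Parietal epithelial markers, the lining of Bowman's capsule, were above 1 in fitted fold for 7 of 7 genes (median log2 fold change 0.67), against 53.2% of all genes. Of the 7, 3 were higher and 0 lower at an unadjusted p under 0.05, where 9.86% and 11.3% of all genes were, and 0 were called. For 2 of the 7 every DKO library was above every WT library, against 8.34% of all genes. The list's sums did not overlap, at 179 to 269 CPM in DKO and 109 to 161 CPM in WT. The most abundant gene of that list was Pax8, a nephron transcription factor that tubule cells also express, so the sums are not particular to this epithelium. Pax8 was at 139 ± 38.7 CPM in DKO and 87.4 ± 16.6 CPM in WT (log2 fold change 0.67, edgeR adjusted p 0.164). The tight junction gene Cldn1 was at 16.9 ± 4.25 CPM in DKO and 10.3 ± 3.41 CPM in WT, and the adhesion molecule Ncam1 at 30.4 ± 12.6 CPM in DKO and 23.8 ± 6.22 CPM in WT. Pax2 (log2 fold change 0.64), chosen with its value in view, was the third gene past the unadjusted threshold. The part of this epithelium in the Vcam1 values was not tested.

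Timp1 (ENSMUSG00000001131, chrX:20870166-20874735, plus strand), an inhibitor of matrix metalloproteinases that accompanies scarring, was the scarcest marker at 10, 8, 6 and 27 reads in DKO replicates 1 to 4, against 23, 9 and 20 reads in WT. This was 0.440, 0.420, 0.308 and 1.10 CPM in DKO and 1.19, 0.476 and 0.946 CPM in WT. DKO replicates 1 to 3 lay below every WT kidney and DKO replicate 4 within the WT range. The log2 fold change was -0.59 (SE 0.52, edgeR adjusted p 0.521), and the fold interval was 0.301 to 1.46. Without DKO replicate 3 it was -0.39, without WT replicate 1 -0.33 and without WT replicate 2 -0.89, and without DKO replicate 4 Timp1 did not pass the count filter. The counting interval of WT replicate 2, 0.218 to 0.904 CPM, covers the 3 lowest DKO values. Timp1 lies inside the gene Syn1 on the opposite strand with no shared exon, and the library kit does not mark strand. Fibroblast and mural cell markers, another source of Timp1, had 0 of 10 genes at an unadjusted p under 0.05, against 21.1% of all genes (median log2 fold change -0.18). Of these, the contractile gene Acta2 was at 114 ± 24.6 CPM in DKO and 96.5 ± 8.33 CPM in WT, the collagen Col3a1 at 74.1 ± 53.3 CPM in DKO and 87.0 ± 21.3 CPM in WT, and the proteoglycan Dcn at 88.8 ± 6.84 CPM in DKO and 102 ± 29.8 CPM in WT. The summed list was 320.1, 542, 363 and 478 CPM in DKO replicates 1 to 4, against 512, 349 and 478 CPM in WT, with the groups overlapping. The part of these cells in the Timp1 values was not tested.

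Among the regulators, Sox9 (ENSMUSG00000000567, chr11:112782224-112787760, plus strand), a transcription factor that drives regeneration of proximal tubule, had 1.80, 3.73, 1.38 and 4.82 CPM in DKO replicates 1 to 4, against 2.80, 2.17 and 3.64 CPM in WT. The DKO kidneys surrounded the WT range, with replicates 2 and 4 above it and replicates 1 and 3 below it. DKO and WT differed by a log2 fold change of 0.032 (SE 0.42, edgeR adjusted p 0.973), and the fold interval was 0.541 to 1.93.

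Cdkn1a (ENSMUSG00000023067, chr17:29090976-29100727, plus strand) encodes p21, the cyclin-dependent kinase inhibitor through which p53 halts the cell cycle, and the p53 core letters lie before its upstream start as shown above. It had 35.9, 31.6, 12.0 and 18.7 CPM in DKO replicates 1 to 4, against 16.6, 22.5 and 13.8 CPM in WT. DKO replicates 1 and 2 were above the WT range, replicate 4 within it and replicate 3 below it. The mean was 24.6 ± 11.1 CPM in DKO (SD, n = 4) and 17.6 ± 4.48 CPM in WT (SD, n = 3), a log2 fold change of 0.48 (SE 0.35, edgeR adjusted p 0.447) with a fold interval of 0.806 to 2.41. Without DKO replicate 1 it was 0.24, and without DKO replicate 3 it was 0.71 (SE 0.27, unadjusted p 0.0248, edgeR adjusted p 0.329).

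Gdf15 (ENSMUSG00000038508, chr8:70629393-70632456, minus strand), a secreted stress cytokine of the TGF-beta family that is induced by p53 and by the integrated stress response, had 2.68, 2.36, 3.79 and 3.75 CPM in DKO replicates 1 to 4, against 4.88, 2.65 and 2.18 CPM in WT. Every DKO kidney lay inside the WT range. DKO over WT was -0.035 on the log2 scale (SE 0.32, edgeR adjusted p 0.960), and the fold interval was 0.596 to 1.60.

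**Figure D2:**
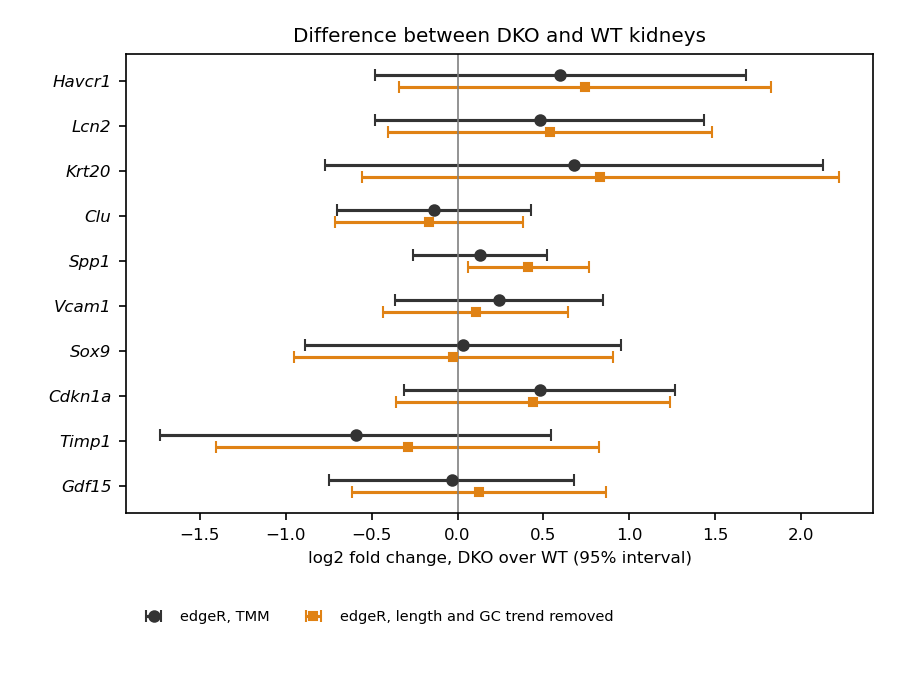
Log2 fold change of DKO over WT for each injury marker with its 95% interval, from edgeR with TMM scaling (circles) and with a trend over exon length and GC content removed (squares). Every circle's interval includes 0, and among the squares only that of Spp1 (0.062 to 0.76) does not.

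The markers did not rank the 7 kidneys in 1 order. DKO replicate 1 was the highest kidney for 4 markers (Lcn2, Krt20, Spp1 and Cdkn1a) and DKO replicate 4 for Havcr1 and Sox9. WT replicate 1 was highest for Clu, Timp1 and Gdf15. DKO replicate 3 was the lowest kidney for 5 markers (Krt20, Clu, Sox9, Cdkn1a and Timp1) while its Lcn2 was the second highest. The median over the markers of log2 CPM minus the WT mean was 0.12, -0.033, -0.39 and 0.41 in DKO replicates 1 to 4, against 0.48, -0.17 and -0.23 in WT replicates 1, 2 and 4. The kidney with the highest median was therefore a WT kidney and the one with the lowest a DKO kidney.

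**Figure D3:**
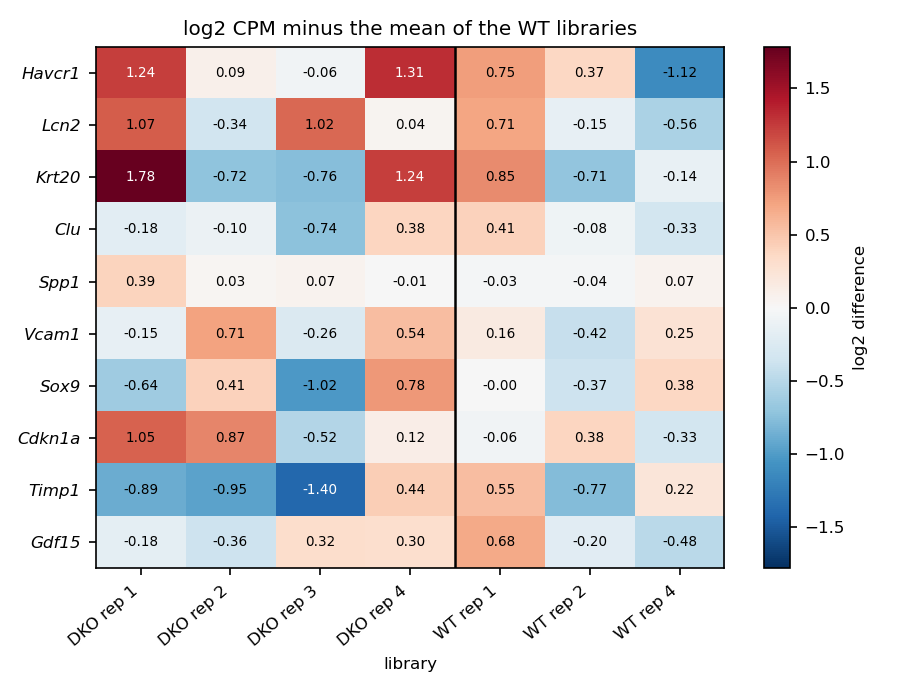
Log2 CPM of each injury marker in each library minus the mean log2 CPM of the 3 WT libraries, with DKO libraries left of the black line and WT libraries right of it. Red is above and blue below the WT mean; Krt20 in DKO replicate 1 is the highest value at 1.78, Timp1 in DKO replicate 3 the lowest at -1.40, and no column holds 1 colour only.

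Of the 45 pairs of markers, 30 had a positive correlation of log2 CPM over the 7 kidneys, and 0 pairs passed adjustment over the 45. Vcam1 and Sox9 followed each other most closely, with a Pearson r of 0.86 (exact permutation p 0.0198, adjusted 0.726) and a Spearman rho of 0.86 (exact permutation p 0.0238, adjusted 0.596). Without the 2 kidneys farthest from the median of Vcam1, r was 0.99. Clu and Timp1 came next, with r of 0.76 (exact permutation p 0.0488, adjusted 0.726) and rho of 0.75 (exact permutation p 0.0663, adjusted 0.596), and r was 0.41 without the 2 kidneys farthest from the median of Clu. Havcr1 and Krt20, picked because both were high in DKO replicates 1 and 4, had r of 0.71 (exact permutation p 0.0683, adjusted 0.726) and rho of 0.75 (exact permutation p 0.0663, adjusted 0.596), and r of 0.96 without the 2 kidneys farthest from the median of Havcr1. The values that picked this pair also enter its correlation, so its p is no independent support. By Pearson r, Lcn2 and Sox9 were the most opposed, at r of -0.73 (exact permutation p 0.0802, adjusted 0.726) and rho of -0.64 (exact permutation p 0.139, adjusted 0.880), and r was -0.23 without the 2 kidneys farthest from the median of Lcn2. By Spearman rho it was Clu and Spp1, at rho of -0.75 (exact permutation p 0.0663, adjusted 0.596) and r of -0.33 (exact permutation p 0.387, adjusted 0.749). The markers of these pairs share libraries, and each library's depth enters both values.

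Other genes known from injured and failed-repair tubule passed the unadjusted threshold about as often as all genes did. Of 27 listed genes 25 were tested and 0 were called, with 2 higher and 3 lower in DKO at an unadjusted p under 0.05, where 9.86% of all genes were higher and 11.3% lower, and a median log2 fold change of 0.059. Without WT replicate 1 that median was 0.31. The most abundant were the calcium-dependent membrane protein Anxa2, at 247 ± 44.0 CPM in DKO (SD, n = 4) and 349 ± 119 CPM in WT (SD, n = 3), the keratin Krt7, at 142 ± 23.0 CPM in DKO and 182 ± 31.3 CPM in WT, and the simple-epithelium keratin Krt18, at 99.9 ± 22.3 CPM in DKO and 97.1 ± 6.501 CPM in WT. The 5 genes past the unadjusted threshold, named after their values were seen, were the copper carrier Cp (log2 fold change 0.78, SE 0.22) and the growth regulator Myc (0.75, SE 0.32) on the higher side. On the lower side they were the TWEAK receptor Tnfrsf12a (-0.73, SE 0.22), the macrophage growth factor Il34 (-0.74, SE 0.28) and the galectin Lgals3 (-0.67, SE 0.26). Their edgeR adjusted p lay between 0.163 and 0.216.

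Among p53 targets, which share their regulator with Cdkn1a, the fitted fold change was above 1 for 7 of 15 tested, where 53.2% of all genes were above. Of the 15, 0 were higher and 3 lower at an unadjusted p under 0.05, where 9.86% and 11.3% of all genes were, and 0 were called. In either direction this was 20% of the list, against 21.1% of all genes. The list's median log2 fold change was -0.11 and ran from -0.23 to 0.013 over the alternatives. The pro-apoptotic gene Bax, named like the next pair after values were seen, was at 29.3 ± 2.89 CPM in DKO and 39.0 ± 2.69 CPM in WT (log2 fold change -0.42, SE 0.15, edgeR adjusted p 0.171). Phlda3 (-0.77) and Ptp4a3 (-0.63) had adjusted p of 0.205 and 0.189. The most abundant members were Btg2, an antiproliferative factor, at 129 ± 21.8 CPM in DKO and 126 ± 15.7 CPM in WT, the cyclin Ccng1, at 79.6 ± 20.1 CPM in DKO and 102 ± 22.9 CPM in WT, and the desmosome protein Perp, at 69.1 ± 10.9 CPM in DKO and 75.9 ± 9.002 CPM in WT.

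Integrated stress response targets, the other class to which Gdf15 belongs, had 2 genes higher and 1 lower in DKO at an unadjusted p under 0.05 among 14 tested (median log2 fold change 0.068), with 0 called. In either direction this was 21.4% of the list, against 21.1% of all genes. Chac1, which degrades glutathione, was at 4.14 ± 0.845 CPM in DKO and 1.96 ± 0.918 CPM in WT with no overlap (log2 fold change 1.08, SE 0.33, edgeR adjusted p 0.163). Sesn2, a brake on mTORC1 (0.62, adjusted p 0.178), was the other on the higher side, and both were named after their values were seen. Psat1, of serine synthesis, was at 55.6 ± 16.1 CPM in DKO and 81.2 ± 14.5 CPM in WT (-0.55, adjusted p 0.220). The amino acid transporter subunit Slc3a2 was at 228 ± 14.6 CPM in DKO and 198 ± 35.9 CPM in WT, and Phgdh, also of serine synthesis, at 29.6 ± 9.05 CPM in DKO and 34.7 ± 2.08 CPM in WT.

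NF-kB and cytokine targets, the class to which Lcn2 and Vcam1 belong, had 1 gene higher and 0 lower at an unadjusted p under 0.05 among 11 tested of 17 listed (median 0.022), or 9.09% against 21.1% of all genes. That gene was the complement component C3, at 25.9 ± 5.38 CPM in DKO and 17.3 ± 5.56 CPM in WT (log2 fold change 0.58, SE 0.24, edgeR adjusted p 0.204). The inhibitor Nfkbia was at 21.96 ± 5.18 CPM in DKO and 19.9 ± 2.89 CPM in WT, and the adhesion molecule Icam1 at 12.3 ± 2.76 CPM in DKO and 12.7 ± 2.5005 CPM in WT. The cytokines Il6, Tnf and Il1b were too scarce to be tested.

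Proximal tubule genes, which injured cells lose as they gain Havcr1 and Vcam1, were higher in DKO for 4 of 15 genes and lower for 0 at an unadjusted p under 0.05 (median log2 fold change 0.25), where 9.86% of all genes were higher and 11.3% lower, with 0 called. Slc34a1 was at 4555 ± 362 CPM in DKO and 3201 ± 191 CPM in WT (log2 fold change 0.51, edgeR adjusted p 0.166). Miox, of inositol breakdown, was at 4723 ± 1017 CPM in DKO and 6222 ± 1170.2 CPM in WT (-0.40, adjusted p 0.326), and Gatm, of creatine synthesis, at 3119 ± 793 CPM in DKO and 3925 ± 423 CPM in WT (-0.33, adjusted p 0.418). The 4 genes past the unadjusted threshold were Slc34a1 and, named after their values were seen, the endocytic receptor Cubn (0.60), the organic anion transporter Slc22a8 (0.49) and the nuclear receptor Hnf4a (0.65). Without WT replicate 4 the list median was 0.096.

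Macrophages, which gather around injured tubules and make Spp1 and Gdf15, were represented by 9 tested of 10 listed genes. Of the 9, 3 were lower and 0 higher at an unadjusted p under 0.05, where 11.3% and 9.86% of all genes were. The median log2 fold change was -0.30. That median turned to 0.053 without WT replicate 1 and to 0.036 with the replicate number as a block, and it was -0.018 without DKO replicate 3, -0.55 without DKO replicate 4 and -0.60 without WT replicate 2. The complement gene C1qb was at 33.1 ± 10.98 CPM in DKO and 71.7 ± 34.0 CPM in WT (log2 fold change -1.12, edgeR adjusted p 0.164) and the lysozyme Lyz2 at 65.7 ± 29.8 CPM in DKO and 132 ± 61.2 CPM in WT (-1.004, adjusted p 0.228), and C1qa, chosen with its value in view, was at 12.0 ± 4.58 CPM in DKO and 21.0 ± 6.28 CPM in WT (-0.81). The receptor Csf1r was at 24.3 ± 6.30 CPM in DKO and 23.0 ± 5.40 CPM in WT. The summed markers were 220, 166, 90.7 and 207 CPM in DKO replicates 1 to 4, against 301, 181 and 385 CPM in WT. DKO replicate 3, lowest in this sum, was also lowest for 5 injury markers, and WT replicate 4, highest in the sum, was lowest for Havcr1, Lcn2 and Gdf15. The part of macrophages in the markers' values was not tested.

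**Figure D4:**
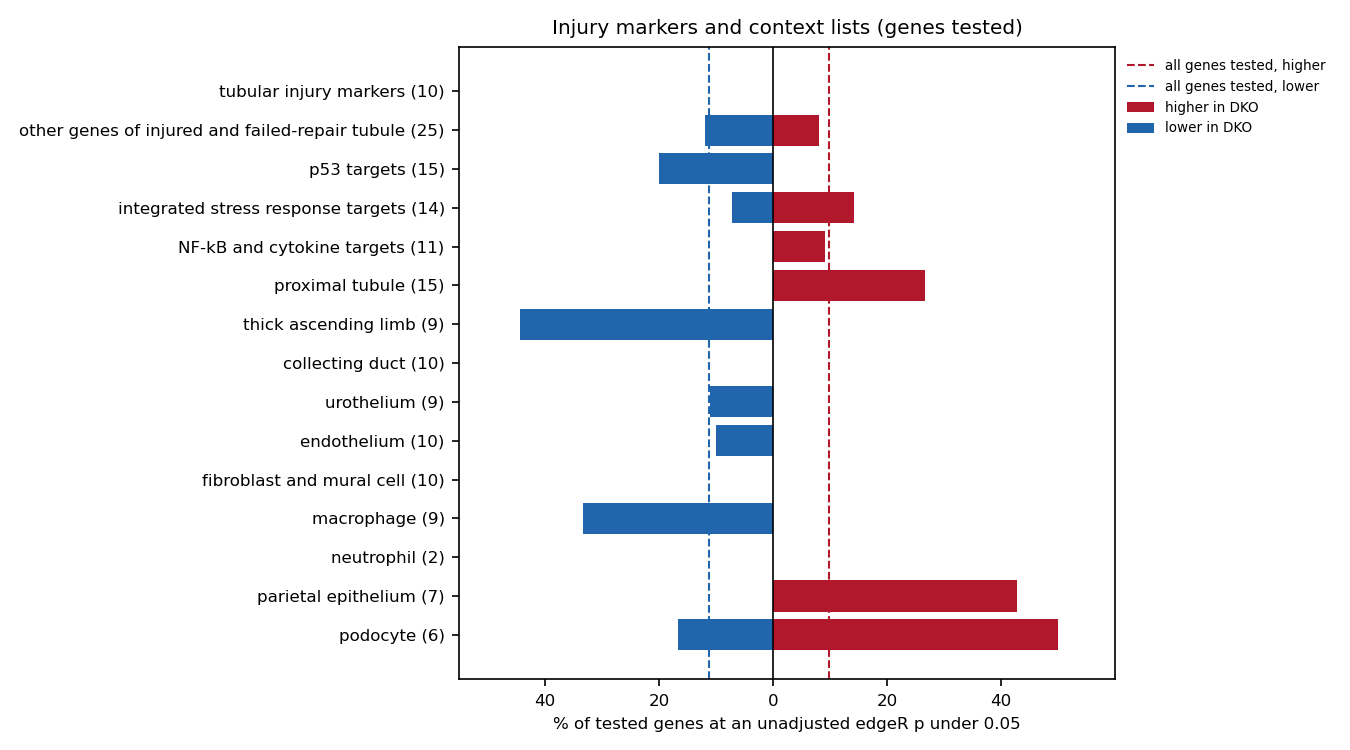
Share of tested genes at an unadjusted edgeR p under 0.05, higher in DKO to the right and lower in DKO to the left, for the injury markers and each context list with the number of genes tested in brackets. Dashed lines give the share among all genes tested, 9.86% higher and 11.3% lower; the injury markers have no bar on either side.

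The remaining lists describe cells that could contribute to the markers. Beside their counts, 9.86% of all genes tested were higher and 11.3% lower at an unadjusted p under 0.05, 21.1% in either direction. Collecting duct genes had 0 of 10 at an unadjusted p under 0.05 (median -0.072); the water channel Aqp2 was at 463 ± 168 CPM in DKO and 344 ± 73.8 CPM in WT, Aqp3 at 195 ± 61.5 CPM in DKO and 187 ± 46.7 CPM in WT, and the sodium channel subunit Scnn1b at 93.4 ± 19.7 CPM in DKO and 99.0 ± 16.8 CPM in WT. Urothelial genes had 1 of 9, the uroplakin Upk3a, at 20.4 ± 1.73 CPM in DKO and 29.96 ± 10.001 CPM in WT (median 0.012); Psca was at 66.6 ± 8.67 CPM in DKO and 66.0 ± 3.56 CPM in WT and Upk1a at 13.2 ± 1.23 CPM in DKO and 12.7 ± 6.54 CPM in WT. Endothelial genes had 1 of 10, Egfl7, at 81.5 ± 13.9 CPM in DKO and 121 ± 46.1 CPM in WT (median 0.16); Ehd3, of glomerular endothelium, was at 104 ± 12.5 CPM in DKO and 93.3 ± 20.3 CPM in WT and the junction protein Esam at 76.0 ± 11.7 CPM in DKO and 78.2 ± 11.4 CPM in WT. Neutrophil genes were at the floor of detection, with S100a9 at 0.845 ± 0.971 CPM in DKO and 1.004 ± 1.05 CPM in WT and the lactoferrin gene Ltf at 0.718 ± 0.339 CPM in DKO and 0.500 ± 0.149 CPM in WT (median 0.14). Podocyte genes had 3 higher and 1 lower of 6 at an unadjusted p under 0.05 and 0 called, with fitted fold changes above 1 for 3 and below 1 for 3 (median 0.26). Podxl, a surface sialoprotein, was at 53.4 ± 3.42 CPM in DKO and 37.1 ± 3.498 CPM in WT, and the transcription factor Tcf21 at 44.9 ± 14.8 CPM in DKO and 77.9 ± 31.9 CPM in WT. Nphs1 (log2 fold change 0.68) and Synpo (0.79), named after their values were seen, were the other podocyte genes on the higher side.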

How the data were processed

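RNA of 7 whole kidneys was sequenced as unstranded tagmentation libraries, per the labels. The authors deposited raw read counts per Ensembl gene (48733 rows, of which 24 are transgene or spike-in sequences with at most 0.000697% of a library's counts, left out of library sizes and tests), a filtered subset of those counts, and a TMM-scaled signal table, which is the deposited filtered counts times 1 factor per library and was used only for gene symbols. STAR 2.5.2a is named in the submitters' processing notes, which list GRCm38, mm10 and GRCh38 without their roles; neither read counter nor annotation release is stated, and how reads on overlapping genes were assigned is unknown. Exons of Spp1, Vcam1 and Cdkn1a share 309, 61 and 273 nt with a noncoding neighbour.

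DKO was compared with WT by edgeR 4.0.16 in R 4.3.3 (TMM, filterByExpr with a minimum count of 10 and total of 15, robust quasi-likelihood F test, two-sided). The fold interval comes from the F statistic and its degrees of freedom. Alternatives used limma 3.58.1, DESeq2 1.42.0, DESeq2 size factors, no count filter, offsets that remove a robust spline trend over exon length and GC content (GENCODE M21), a replicate block, and each library left out. The tests were also run on simulated counts, where the pass condition concerned only the direction of large changes. Recovery of changes as small as the markers' is not given here, so that run does not bear on the absence of calls. Counting intervals are exact 95% Poisson intervals and cover counting error only, since reads without molecular identifiers are not independent molecules. Pairwise correlations used exact permutation over 7 libraries. No library was a repeat of another (chi-square per gene 41.3 to 212). The median log2 fold change of all genes was within 0.1 of 0 under each setting.

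All markers are named. From each context list the genes called were to be named, up to 4, and otherwise the 3 most abundant; others are said to be chosen after their values were seen. The value of 1 gene that this rule names is not reported here. The markers and lists were chosen with earlier results of these data known.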

Additional observations from a re-analysis of the deposited data

Results flagged for a closer look

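Among 65 sets of 4 DKO values checked (the injury markers, the most abundant genes of each context list and the summed lists), 4 held a kidney far from the other 3 of its group; chance alone flags about 1 set in 20. Timp1 was at 1.10 CPM in DKO replicate 4, against at most 0.440 CPM in the other DKO kidneys, on 27 reads. Ccng1 was at 109.5 CPM in DKO replicate 1, against 66.1 to 72.5 CPM in the other DKO kidneys. Miox was at 3212 CPM in DKO replicate 2, against 5026 to 5348 CPM in the other DKO kidneys. The summed NF-kB and cytokine targets were at 108 CPM in DKO replicate 1, the kidney with the highest Lcn2, against 88.0 to 90.8 CPM in the other DKO kidneys.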

How the results depend on the processing

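No marker was called under any alternative that gave it an adjusted p (lowest adjusted p 0.262, for Cdkn1a with the replicate block), and the log2 fold changes of Havcr1, Lcn2, Krt20, Spp1, Vcam1, Cdkn1a and Timp1 kept their sign in all of theirs; Timp1 could not be tested in 1 of them. The count of markers at an unadjusted p under 0.05, 0 in the main analysis, was 1 (Spp1) with the length and GC trend removed, 1 (Cdkn1a, log2 fold change 0.69, p 0.00618) with the replicate block and 2 (Cdkn1a and Krt20) with the replicate block and that trend removed, and 0 to 1 with 1 library left out. The count of markers without overlap between groups was 0 to 1 with 1 library left out (Timp1 without DKO replicate 4, Spp1 without WT replicate 4). Directions turned for genes near 0. Clu was at 0.044 with the replicate block, 0.0023 with the block and the trend removed, and -0.35 to 0.081 with 1 library left out. Sox9 was at -0.11 in limma-voom, -0.024 with the trend removed and -0.32 to 0.27 with 1 library left out. Gdf15 was at 0.035 in limma-voom, 0.13 with the trend removed, 0.081 with the block and the trend removed, and -0.26 to 0.37 with 1 library left out. The median over the markers was 0.076 to 0.33 over all alternatives. Over all genes, 0 called in the main analysis, DESeq2 called 672, the analysis without a count filter 66, and leaving out DKO replicate 1 or WT replicate 2 gave 7 and 1. Genes at an unadjusted p under 0.05 numbered 3250 of 15394 tested in the main analysis and 2314 of 15350 with the block. Among alternatives with the count filter they ran from 1582 of 15697 (without WT replicate 4) to 3796 of 15231 (without DKO replicate 1). Without the filter they were 3993 of 27440. List medians ranged over the alternatives from 0.035 to 0.31 for other injured-tubule genes, 0.096 to 0.33 for proximal tubule, -0.41 to -0.19 for thick ascending limb, 0.33 to 0.80 for parietal epithelium and 0.19 to 0.29 for podocytes. Those of the remaining lists took both signs: -0.60 to 0.053 for macrophages, -0.60 to 0.86 for neutrophils, -0.32 to 0.075 for fibroblasts, -0.23 to 0.013 for p53 targets, -0.064 to 0.18 for stress response targets, -0.097 to 0.10 for NF-kB targets, -0.22 to 0.038 for collecting duct, -0.16 to 0.28 for urothelium and -0.081 to 0.22 for endothelium. Whether same-numbered DKO and WT kidneys shared more than a number is not stated in the labels. Their deviations correlated at -0.13, 0.16 and 0.14 for replicates 1, 2 and 4. DKO replicates 2 and 4 correlated best with the WT kidney of their own number, and DKO replicate 1 did not. Correlations over so few kidneys cannot decide whether the numbers pair kidneys, and the block drops DKO replicate 3. The cause of these shifts was not tested. Timp1, Krt20, Havcr1 and Lcn2 had 6 to 75 reads per library, so their counting intervals are wide, and how much of their spread is counting error was not tested.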
